A study of Homo sapiens with 12 samples.

Results

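HMC-1.3 clone 1 was compared with its parental line HMC-1.2, with 3 RNA-seq libraries from each, so that 6 of the 12 libraries of the series belong to the comparison. The 6 were chosen by their sample titles alone. HMC-1 is an established human mast cell leukaemia line. HMC-1.2 carries 2 activating variants of the receptor KIT, V560G and D816V, whereas HMC-1.3 clone 1 carries D816V alone, on 1 allele, after V560G had been returned to the normal codon. The repair used CRISPR/Cas9, a guide RNA and a single-stranded repair template, which also put a silent change into the next codon. Cells were then selected with puromycin and cloned by limiting dilution. Clone 1 is thus a single clone, and no such selection or cloning is described for HMC-1.2 in the sources used here. The repair and the history of the clone cannot be told apart in this comparison. No library had a treatment, and replicates were wells plated in parallel, so p-values measure the spread between such wells. The other 6 libraries, 3 of HMC-1.1, a subline with V560G alone, and 3 of HMC-1.3 clone 2, a further clone of the same repair, entered the fit and are given beside clone 1 where they bear on it. The KIT genotype of the libraries was not checked here.

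KIT is the receptor tyrosine kinase for stem cell factor, on which mast cells depend for survival and growth. Binding of the ligand pairs 2 receptors, and the kinase domains then start signalling through PI3K, the ERK kinases and STAT5. The juxtamembrane segment holds the kinase off in the resting receptor, and V560G lies there. D816V lies in the activation loop of the kinase domain and keeps the kinase active without ligand, and it is the common variant of systemic mastocytosis. Both codons are shown with the bases around them because they are what defines the groups. The sequences are those of the reference genome hg38, plus strand, not those of the cells, with the codon in capitals. Codon 560 stands in exon 11 at position 54727446 of chromosome 4, within the window chr4:54727401-54727493, and codon 816 in exon 17 at position 54733154, within chr4:54733109-54733201.
KIT codon 560: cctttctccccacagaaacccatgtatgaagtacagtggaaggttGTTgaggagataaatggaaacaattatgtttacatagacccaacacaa
KIT codon 816: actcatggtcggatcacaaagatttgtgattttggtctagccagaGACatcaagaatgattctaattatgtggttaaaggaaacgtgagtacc

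The sum of expected counts was 29225900 to 36794166 for the HMC-1.2 libraries and 34387866 to 36899392 for those of clone 1. Mitochondrial genes took 1.77 to 1.99% of the counts in HMC-1.2 and 2.27 to 2.6% in clone 1. The sample descriptions mark replicate 1 of HMC-1.2 and replicate 3 of clone 1 as resent. Between libraries of a group the chi-square over genes was 2.88 to 8.01 per degree of freedom, above the value of 1 that sampling noise alone gives. Levels are given as FPKM, fragment counts normalised to transcript length and to depth, which the authors deposited, and values with ± are the mean and SD of 3 libraries unless a standard error is named. Differences, written as log2 with ± the standard error, are those of clone 1 minus HMC-1.2 from edgeR's quasi-likelihood test on counts, unless another pair is named. Positions are from Gencode 44 on hg38.

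Of the 15944 genes tested, 3193 (20.0%) were called, which means an adjusted p under 0.05 and a fold over 1.5. They were 1888 genes higher in clone 1 (11.8%) and 1305 lower (8.18%), and by adjusted p alone 59.4% of genes differed. At over 4-fold the balance was the other way, with 257 higher and 337 lower. The median log2 difference over all genes was 0.01, and in 64.2% of all genes the libraries of the groups did not overlap. Against HMC-1.1, 161 genes (1.01%) were called in clone 1, and against clone 2, 2013 genes (12.6%). Among 722 tested genes of 40 lists of pathways and functions, 255 (35.3%) were called, 86 higher and 169 lower. The shares called in each list are plotted by direction, beside the share over all genes. Counts of called members given below stand against those shares, 11.8% higher and 8.18% lower. Lists near or under 20.0% called do not stand out from all genes. They include those of PI3K (21.1%), iron (21.4%), NF-kappaB (17.6%), lysosomal (16.0%) and glycolysis and hypoxia genes (10.7%).

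**Figure D1:**
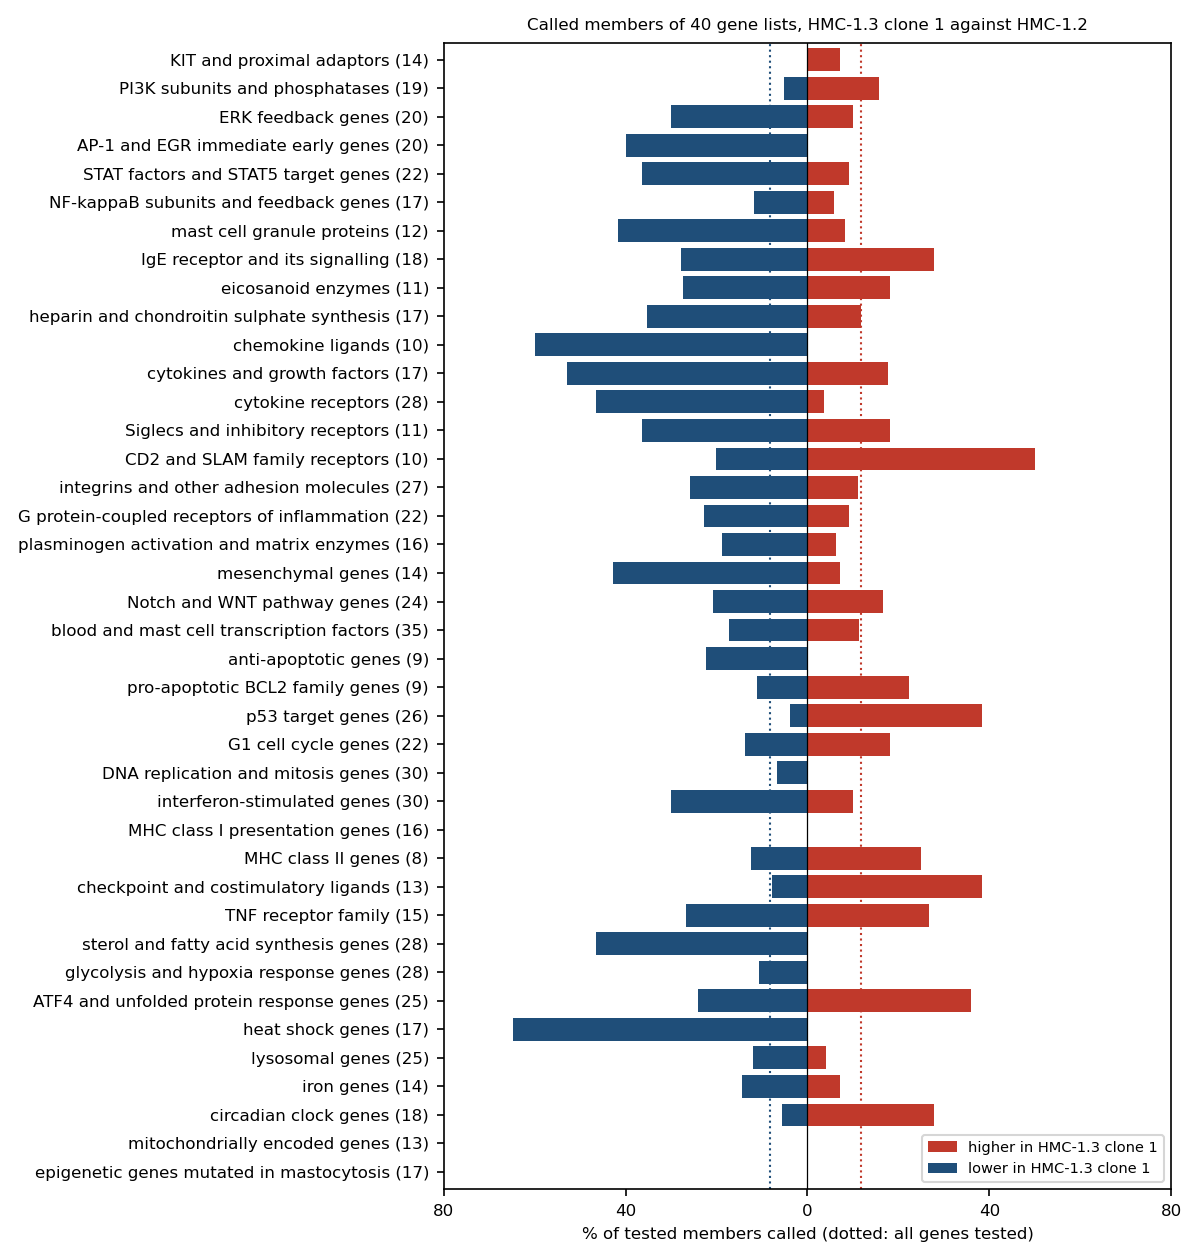
Share of the tested members of each list that was called higher (right, red) or lower (left, blue) in clone 1 relative to HMC-1.2, in percent, with the number tested in brackets. Dotted lines mark the shares over all genes tested, 11.8% and 8.18%. Heat shock genes, chemokine ligands and cytokines reach furthest to the left, and CD2 and SLAM family receptors furthest to the right.

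KIT itself (chromosome 4, 54657267 to 54740783) gave 363, 346 and 358 FPKM in HMC-1.2 and 455, 427 and 469 FPKM in clone 1. Every clone 1 library lay above every HMC-1.2 library, but the difference (log2 0.29 ± 0.03, adjusted p = 2.89e-07, edgeR's quasi-likelihood test) is under 1.5-fold and was not called. Of 14 tested genes of the list of KIT and its proximal adaptors, 1 was called, GAB1, an adaptor that brings PI3K and SHP2 to receptors, which rose from 0.767 ± 0.272 to 1.37 ± 0.261 FPKM (log2 0.84 ± 0.14). Among PI3K genes 3 of 19 rose and 1 fell (21.1% called, against 20.0% of all genes). The fall was INPP5D, which encodes SHIP1, the phosphatase that removes the product of PI3K in blood cells and restrains KIT signals. It gave 132, 127 and 127 FPKM in HMC-1.2 and 26.0, 25.1 and 25.3 FPKM in clone 1, log2 -2.58 ± 0.03. The rises included INPP4B, a phosphatase for PI3K lipids, which rose from 4.8 ± 0.28 to 8.11 ± 0.149 FPKM (log2 0.85 ± 0.06), and PIK3R2, a regulatory subunit (log2 0.63 ± 0.17).

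Genes that ERK signalling switches on, and that mostly feed back on it, went both ways, with 2 of 20 tested higher and 6 lower (median -0.07). DUSP4, a nuclear phosphatase for ERK, rose from 19.7, 19.9 and 20.7 FPKM in the HMC-1.2 libraries to 140.2, 133 and 139 FPKM in those of clone 1 (log2 2.72 ± 0.03). CCND1, which encodes the G1 cyclin D1, gave 9.7, 9.93 and 11.2 FPKM in HMC-1.2 and 1.65, 1.18 and 1.2 FPKM in clone 1, log2 -3.03 ± 0.09. SPRY2, an inhibitor of receptor tyrosine kinase signals, fell from 2.1 ± 0.182 to 0.847 ± 0.0902 FPKM (log2 -1.36 ± 0.14), and DUSP8, a phosphatase for stress kinases, had log2 -1.04 ± 0.20 at under 2 FPKM. SPRED3, called higher, was under 2 FPKM as well (log2 0.6 ± 0.24). DUSP6, the ERK phosphatase most often read as a measure of the pathway, gave 169, 169 and 168 FPKM in HMC-1.2 and 159.8, 148 and 159 FPKM in clone 1 and was not called (log2 -0.14 ± 0.03).

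The immediate early genes of the AP-1 and EGR families, transcription factors that follow growth signals within minutes, were called lower in 8 of 20 tested cases and higher in none. Their median log2 difference was -0.27, against 0.01 over all genes. FOS gave 20.4, 24.7 and 25.1 FPKM in HMC-1.2 and 7.62, 8.1 and 6.88 FPKM in clone 1. It thus fell from 23.4 ± 2.61 to 7.53 ± 0.615 FPKM, log2 -1.67 ± 0.08. FOSB fell from 6.57 ± 1.23 to 2.17 ± 0.262 FPKM (log2 -1.61 ± 0.18), EGR3 fell from 0.74 ± 0.0624 to 0.29 ± 0.0819 FPKM (log2 -1.8 ± 0.21) and EGR1 fell from 46.4 ± 1.29 to 22.3 ± 0.619 FPKM (log2 -1.11 ± 0.04), while JUN, at 2.83, 2.38 and 2.36 FPKM in clone 1, was not called (log2 0.15 ± 0.09). In FOS and FOSB clone 1 also lay below clone 2 (log2 -0.8 ± 0.08 and log2 -0.67 ± 0.18) and below HMC-1.1 (log2 -0.96 ± 0.08 and log2 -1.13 ± 0.18), all 4 called.

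Among STAT factors and STAT5 target genes 2 of 22 rose and 8 fell. With HMC-1.2 as the base, the list had medians of -0.26 for clone 1, -0.10 for clone 2 and -0.26 for HMC-1.1. STAT5A, which KIT activates in mastocytosis, was at 99.6 ± 1.22 FPKM in HMC-1.2 and 66.2 ± 1.64 FPKM in clone 1, just under 1.5-fold lower (log2 -0.58 ± 0.03), and STAT5B was not called (log2 0.07 ± 0.03). Of the feedback inhibitors that STATs induce, SOCS3 fell from 7.31 ± 0.534 to 3.0 ± 0.01 FPKM (log2 -1.32 ± 0.11), and CISH was just under the fold (log2 -0.58 ± 0.05). ID1, an inhibitor of helix-loop-helix factors, fell from 3.81 ± 0.117 to 1.8 ± 0.133 FPKM (log2 -1.15 ± 0.15). IL2RA (CD25, log2 -1.1 ± 0.05) fell as well. PIM1, a survival kinase and STAT5 target, was at 372, 339 and 345 FPKM in clone 1 and was not called (log2 -0.21 ± 0.03). The rises were BCL6 (log2 0.84 ± 0.17), a repressor, and STAT4 (log2 0.78 ± 0.25), both under 2 FPKM. Of 17 NF-kappaB genes 1 rose, the inhibitor NFKBIA (log2 0.72 ± 0.10), and 2 fell, NFKBID (log2 -0.69 ± 0.10) and BIRC3 (log2 -0.81 ± 0.28), the latter at under 0.5 FPKM. That is 17.6% called, against 20.0% of all genes.

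The 12 genes with the largest rises and the 12 with the largest falls were taken among called genes that averaged 2 CPM (counts scaled to the library total) or more in the higher group and no overlap of libraries. Most of them were at or near 0 in one of the groups. For such genes the counts are given in place of a fitted difference, with a ratio or a lower bound against 3 counts over the group, which cover counting error only. XIST, the RNA that coats the inactive X chromosome, had 5554 to 7867 counts per HMC-1.2 library and 4 over the 3 clone 1 libraries. DNAJA4 had 474 to 600 counts per HMC-1.2 library and 1 over the 3 clone 1 libraries, a ratio of 1750 with a 95% counting interval of 314 to 69300. DNAJA4 encodes a co-chaperone of HSP70. TNFRSF10D had 61 to 87 counts per HMC-1.2 library and 0 over the 3 clone 1 libraries, at least 83.0-fold lower in clone 1. It encodes a decoy receptor for the death ligand TRAIL. ZNF542 had 226 to 302 counts per HMC-1.2 library and 1 over the 3 clone 1 libraries, a ratio of 897 with a 95% counting interval of 161 to 35500. ZNF100 had 152 to 216 counts per HMC-1.2 library and 1 over the 3 clone 1 libraries, a ratio of 602 with a 95% counting interval of 108 to 23800. Both are zinc finger genes of chromosome 19. STC1 had 166 to 232 counts per HMC-1.2 library and 3 over the 3 clone 1 libraries, a ratio of 214 with a 95% counting interval of 72.9 to 1040. STC1 is a secreted glycoprotein hormone. ACSS1 had 92 to 132 counts per HMC-1.2 library and 3 over the 3 clone 1 libraries, a ratio of 124 with a 95% counting interval of 42.1 to 605. ACSS1 makes acetyl-CoA in mitochondria. SFRP1 had 67 to 83 counts per HMC-1.2 library and 2 over the 3 clone 1 libraries, a ratio of 122 with a 95% counting interval of 33.3 to 1010. SFRP1 is a secreted inhibitor of WNT ligands.

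Other falls were measured well above 0 in HMC-1.2. TNF, the cytokine tumour necrosis factor (chromosome 6, 31575565 to 31578336), gave 85.4, 88.9 and 86.5 FPKM in HMC-1.2 and 0.66, 0.99 and 0.88 FPKM in clone 1, log2 -6.74 ± 0.14. SIGLEC12, an inhibitory lectin receptor, fell from 37.6 ± 0.698 to 0.41 ± 0.0265 FPKM (log2 -6.7 ± 0.10). KIF17, a kinesin motor, fell from 30.5 ± 1.43 to 0.32 ± 0.0854 FPKM (log2 -6.55 ± 0.11). CCDC120 had 166 to 219 counts per HMC-1.2 library and 0, 4 and 0 in those of clone 1. Apart from KIF17, the 12 genes were also called lower in clone 2 and in HMC-1.1 when each was set against HMC-1.2, and every library of these sublines lay below every HMC-1.2 library. SFRP1 came nearest, at up to 0.42 FPKM in clone 2 against 0.54 FPKM in the lowest HMC-1.2 library. KIF17 was at 25.9, 25.6 and 26.4 FPKM in clone 2, and the direct difference of clone 1 from clone 2 was log2 -6.27 ± 0.11 (adjusted p = 1.38e-16, edgeR's quasi-likelihood test).

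The largest rises were PLEKHB1 and MPZL2. PLEKHB1 had 472 to 522 counts per clone 1 library and 2 over the 3 HMC-1.2 libraries, a ratio of 684 with a 95% counting interval of 189 to 5650. MPZL2, an adhesion protein of the immunoglobulin family (chromosome 11, 118253416 to 118264536), gave 0.05, 0.12 and 0.09 FPKM in HMC-1.2 and 41.6, 37.8 and 40.8 FPKM in clone 1, log2 9.13 ± 0.10. FCER1G, which encodes the common Fc receptor gamma chain, gave 2.43, 1.21 and 1.14 FPKM in HMC-1.2 and 97.8, 91.1 and 94.2 FPKM in clone 1, log2 5.76 ± 0.12. The long non-coding RNA LINC00624 rose from 0.0867 ± 0.0153 to 9.34 ± 0.425 FPKM (log2 6.7 ± 0.11), ROR2, a receptor for WNT5A, rose from 0.0967 ± 0.0231 to 4.88 ± 0.32 FPKM (log2 5.57 ± 0.13), and DAB2IP, a GTPase activator for RAS, rose from 0.08 ± 0.0361 to 2.41 ± 0.216 FPKM (log2 4.74 ± 0.16). KLK1, the tissue kallikrein, rose from 0.31 ± 0.104 to 7.58 ± 0.674 FPKM (log2 4.5 ± 0.27), and CD2, an adhesion receptor found on neoplastic mast cells, rose from 0.133 ± 0.0709 to 3.33 ± 0.196 FPKM (log2 4.53 ± 0.25). SAMD12 (log2 4.42 ± 0.21), NAALAD2 (log2 4.76 ± 0.43) and NR5A1 (log2 4.53 ± 0.35) rose from under 0.3 FPKM. CHRM3 had 69 to 85 counts per clone 1 library and 4 over the 3 HMC-1.2 libraries, a ratio of 53.1 with a 95% counting interval of 20.5 to 196, and it encodes a muscarinic acetylcholine receptor. The levels in clone 1 were close to those in HMC-1.1 in all 12 genes, with direct differences of -0.18 to 0.36, and none was called.

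**Figure D2:**
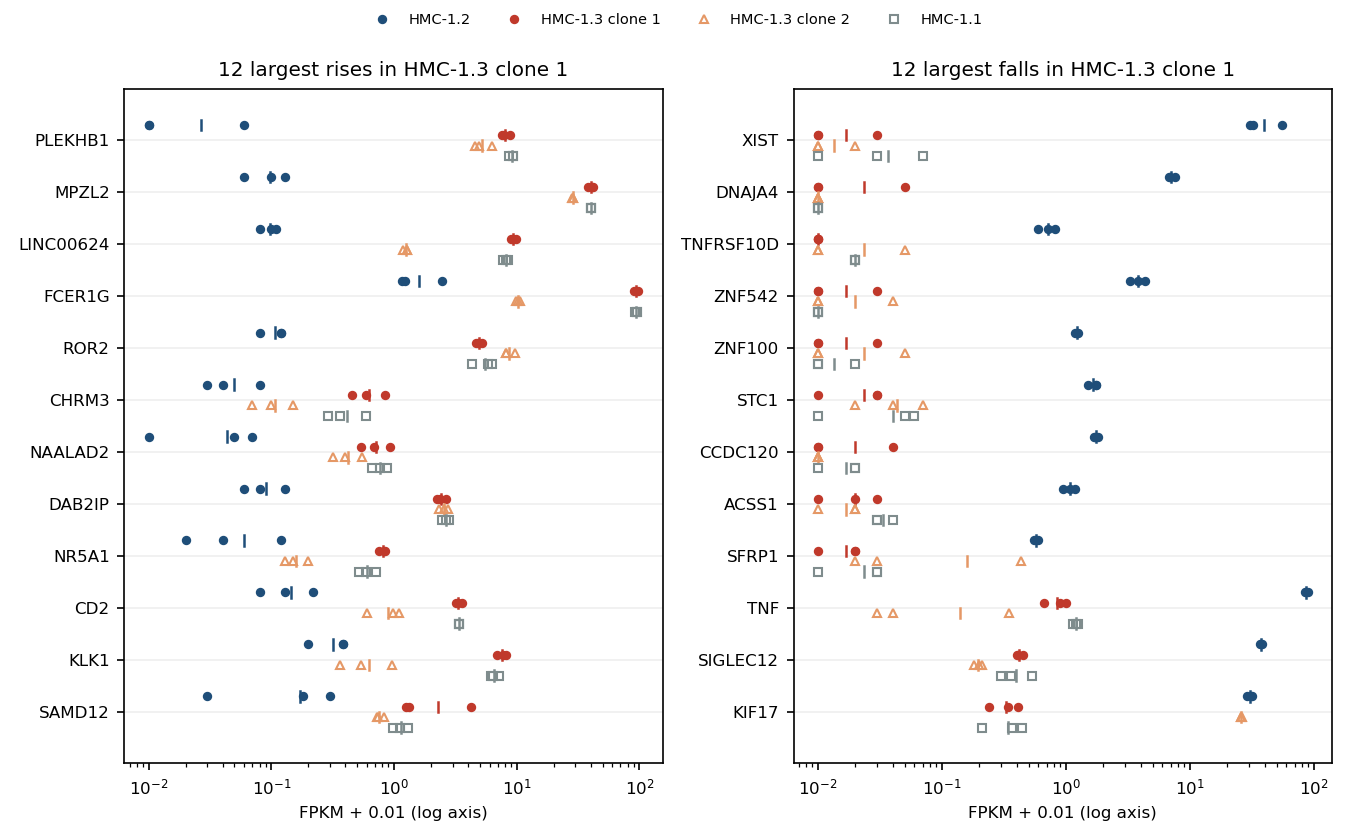
FPKM plus 0.01 on a log axis for the 12 largest rises (left) and falls (right) in HMC-1.3 clone 1 against HMC-1.2. Each point is a library and each bar a mean over 3, with HMC-1.2 in blue, clone 1 in red, clone 2 as orange triangles and HMC-1.1 as grey squares. Blue and red points do not overlap in any of the genes, and KIF17 is the gene in which clone 2 stays with HMC-1.2.

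Mast cells are known for secretory granules with tryptases, chymase, carboxypeptidase, histamine and heparin, and for the high-affinity IgE receptor that empties them. Of 15 granule genes 12 were tested, and 1 rose and 5 fell. TPSAB1, a tryptase gene (chromosome 16, 1240379 to 1242554), gave 607, 596 and 573 FPKM in HMC-1.2 and 45.2, 44.4 and 42.9 FPKM in clone 1, log2 -3.83 ± 0.04. Its neighbour TPSB2 fell from 96.6 ± 2.45 to 40.7 ± 1.76 FPKM (log2 -1.3 ± 0.04), and the gamma tryptase TPSG1 fell from 19.1 ± 0.929 to 0.337 ± 0.0551 FPKM (log2 -6.06 ± 0.18). TPSAB1 and TPSB2 are nearly identical, so that RSEM can divide their reads between them, and the split of the fall between these 2 genes is uncertain. TPSD1, a further gene of the cluster, was not called (log2 0.11 ± 0.14). SLC18A2, the transporter that loads histamine into granules, fell from 326 ± 7.18 to 173 ± 6.78 FPKM (log2 -0.97 ± 0.03). HDC, which makes histamine, was at 847, 869.8 and 851 FPKM in clone 1, lower in every library than in HMC-1.2 but under the fold (log2 -0.28 ± 0.03). The rise was CPA3, the mast cell carboxypeptidase, from 3.04, 3.14 and 3.75 FPKM to 8.37, 7.12 and 7.08 FPKM (log2 1.21 ± 0.09).

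The subunits of the IgE receptor went in opposite directions. FCER1G, above, rose to a mean of 94.4 FPKM. FCER1A, the chain that binds IgE, gave 1.08, 1.27 and 0.91 FPKM in HMC-1.2 and 0.12, 0.14 and 0.15 FPKM in clone 1, log2 -2.89 ± 0.35, and MS4A2, the beta chain, fell at under 0.5 FPKM (log2 -1.68 ± 0.39). Among 18 tested genes of the receptor and its signalling, 5 rose and 5 fell. The tyrosine kinases of this list rose, SYK from 32.4 ± 0.509 to 62.1 ± 0.955 FPKM (log2 0.9 ± 0.03) and BTK from 140.2 ± 0.908 to 359 ± 2.72 FPKM (log2 1.3 ± 0.03). The adaptors LAT2 and GRAP2 fell. LAT2 gave 14.6, 14.9 and 16.6 FPKM in HMC-1.2 and 0.95, 0.92 and 0.8 FPKM in clone 1 (log2 -4.48 ± 0.18), and GRAP2 gave 63.5, 62.7 and 62.5 FPKM in HMC-1.2 and 9.1, 6.87 and 8.4 FPKM in clone 1 (log2 -2.91 ± 0.05). MS4A3 fell from 31.7 ± 1.34 to 7.89 ± 0.79 FPKM (log2 -2.03 ± 0.07). FCER1G and FCER1A differed between the clones as well, by log2 3.21 ± 0.08 and log2 -2.95 ± 0.35.

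Mast cells also make prostaglandin D2 and leukotriene C4. Of 11 eicosanoid enzymes tested, 2 rose and 3 fell. Transcripts for leukotriene C4 synthesis fell, ALOX5AP, for the 5-lipoxygenase activating protein, from 153 ± 7.77 to 27.2 ± 0.596 FPKM (log2 -2.55 ± 0.05) and LTC4S, for leukotriene C4 synthase, from 12.9 ± 1.55 to 2.17 ± 0.41 FPKM (log2 -2.74 ± 0.20). TBXAS1, thromboxane synthase, fell by less (log2 -0.88 ± 0.20). PTGDS, a prostaglandin D synthase, rose from 16.4 ± 2.36 to 39.9 ± 2.67 FPKM (log2 1.23 ± 0.09), and PLA2G4A, the phospholipase that frees arachidonic acid, rose from 5.08 ± 0.121 to 8.11 ± 0.117 FPKM (log2 0.6 ± 0.05). Of 17 genes for heparin and chondroitin sulphate, the charged sugar chains of granules, 2 rose and 6 fell. GLCE, an epimerase of heparin, rose from 12.0 ± 0.287 to 25.1 ± 1.05 FPKM (log2 1.08 ± 0.05) and CHST15, a sulphotransferase, rose from 7.12 ± 0.406 to 11.6 ± 1.18 FPKM (log2 0.62 ± 0.06). The falls included XYLT1 (log2 -1.3 ± 0.12) and B4GALT7 (log2 -1.15 ± 0.08), which build the linker to the protein, and the sulphotransferase CHST11 (log2 -0.83 ± 0.03). B4GALT7 lies in a stretch near the end of chromosome 5, given below, where most genes were lower.

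**Figure D3:**
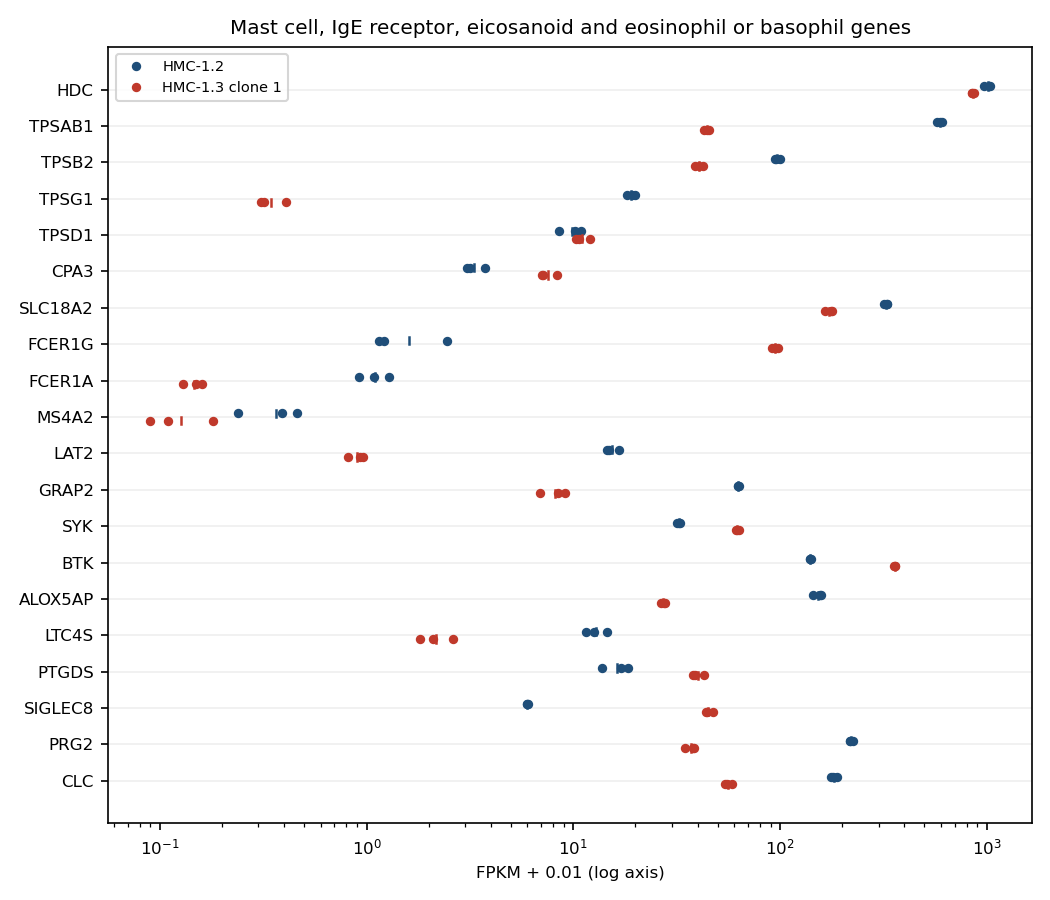
FPKM plus 0.01 on a log axis in the 3 libraries of HMC-1.2 (blue) and of HMC-1.3 clone 1 (red) for genes of granules, IgE receptor, eicosanoids and eosinophils or basophils. Bars are means. FCER1G, SIGLEC8, CPA3, BTK, SYK and PTGDS are to the right of HMC-1.2, TPSAB1, TPSG1, LAT2, PRG2 and CLC to its left, and only TPSD1 has overlapping groups.

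Markers of cell types were summed as a check of the label. Over 14 mast cell markers the summed FPKM was 2834 to 2874 in HMC-1.2 and 2164 to 2219.9 in clone 1. Of 13 tested, 2 rose and 5 fell. Much of the fall in the sum is that of TPSAB1, given above. The median log2 difference of the 13 was 0.10, with 7 above 0 and 6 below. Over 10 eosinophil and basophil markers the sum was 566 to 586 in HMC-1.2 and 274 to 285 in clone 1, and 6 of the 7 tested fell. PRG2, the major basic protein of eosinophil granules, gave 225, 219 and 218 FPKM in HMC-1.2 and 37.9, 38.5 and 34.8 FPKM in clone 1 (log2 -2.64 ± 0.06). CLC, the Charcot-Leyden crystal protein, fell from 182 ± 6.99 to 56.2 ± 2.17 FPKM (log2 -1.76 ± 0.06). IL5RA (log2 -1.73 ± 0.07), EPX (log2 -2.97 ± 0.41) and CD24 (log2 -3.23 ± 0.55, 0 to 4 counts per clone 1 library) fell as well, the latter pair at under 1 FPKM, and RNASE2 had 13 to 25 counts per HMC-1.2 library and 4 over the 3 clone 1 libraries, a ratio of 14.9 with a 95% counting interval of 5.49 to 56.6. Over 14 erythroid and megakaryocyte markers the sum was 681 to 709 in HMC-1.2 and 986 to 1020 in clone 1. The members that make up this sum are not given here. Of 6 tested, 3 rose, HBB (log2 2.34 ± 0.33), HBG2 (log2 1.79 ± 0.50) and the erythroid factor KLF1 (log2 1.72 ± 0.21). EPOR was lower but under the fold (log2 -0.41), and GP9, PF4 and HBG1 were at 0 in all 6 libraries. T cell, B cell and most myeloid markers were low, with CD5, CD8A, MS4A1, PAX5, MPO, ELANE, S100A8 and S100A9 at 0 in all 6 libraries. CD68, a lysosomal protein of the monocyte list, gave 18.3, 12.3 and 13.3 FPKM in HMC-1.2 and 4.41, 4.83 and 4.56 FPKM in clone 1 (log2 -1.61 ± 0.10). EBF1 rose at under 2 FPKM (log2 1.13 ± 0.13), and KRT19, a keratin of the epithelial list, fell from 437 ± 6.09 to 172 ± 1.66 FPKM (log2 -1.4 ± 0.03). COL1A1 (log2 -1.0 ± 0.39) and PDGFRB (log2 1.06 ± 0.19) were under 1 FPKM. In bulk RNA, fewer cells of a type and less RNA per cell cannot be told apart, and the part of these markers in other results was not tested.

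Chemokine ligands, which draw leukocytes into tissue, fell in 6 of the 10 cases tested and rose in none, with a median of -1.50. The list had medians of -0.93 for clone 2 and -1.71 for HMC-1.1, each against HMC-1.2. A further 10 members of the list were too low to test. CCL1 gave 182, 175 and 175 FPKM in HMC-1.2 and 23.5, 21.8 and 26.9 FPKM in clone 1, log2 -2.95 ± 0.06. CCL2, the monocyte chemoattractant, fell from 165 ± 8.15 to 24.2 ± 1.01 FPKM (log2 -2.82 ± 0.07). CCL3L3 fell from 38.0 ± 2.03 to 7.22 ± 0.431 FPKM (log2 -2.46 ± 0.10) and CCL3 fell from 1.08 ± 0.3 to 0.33 ± 0.0173 FPKM (log2 -1.72 ± 0.41), and since these are copies of nearly the same gene, their reads can be divided between them. CCL1 and CCL2 were below clone 2 as well (log2 -0.6 ± 0.07 and log2 -1.35 ± 0.07), whereas CCL3L3 was above it (log2 0.85 ± 0.12).

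Of 17 cytokines and growth factors tested 3 rose and 9 fell. Beside TNF, IL32, an inflammatory cytokine, fell from 4.09 ± 0.2 to 0.337 ± 0.133 FPKM (log2 -3.8 ± 0.31), and CSF1, the macrophage growth factor, gave 44.2, 46.0 and 44.8 FPKM in HMC-1.2 and 7.07, 6.37 and 7.01 FPKM in clone 1, log2 -2.74 ± 0.04. The rises were LTB, lymphotoxin beta, a membrane partner in the TNF family, which rose from 2.1 ± 0.832 to 15.8 ± 0.584 FPKM (log2 2.86 ± 0.16), IL18, which rose from 26.8 ± 0.619 to 55.3 ± 1.07 FPKM (log2 0.98 ± 0.05), and AREG. AREG had 2 to 20 counts per clone 1 library and 5 over the 3 HMC-1.2 libraries, a ratio of 6.35 with a 95% counting interval of 2.48 to 20.8. TNF and LTB lie side by side on chromosome 6, at 31575565 to 31578336 and 31580525 to 31582522, and differed in opposite directions.

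Of 28 cytokine receptors tested 13 fell and 1 rose (median -0.50). IL2RG, the gamma chain that the receptors for several interleukins share, gave 17.1, 16.9 and 19.5 FPKM in HMC-1.2 and 1.73, 1.18 and 1.74 FPKM in clone 1, log2 -3.96 ± 0.13. LIFR fell from 3.26 ± 0.455 to 0.427 ± 0.185 FPKM (log2 -3.25 ± 0.15), IL18RAP fell from 4.3 ± 1.08 to 0.59 ± 0.0794 FPKM (log2 -2.76 ± 0.15), IL10RA fell from 5.93 ± 1.11 to 1.14 ± 0.482 FPKM (log2 -2.72 ± 0.10) and IL1RAP, a chain of several receptors of the interleukin-1 family, fell from 29.2 ± 2.09 to 8.06 ± 0.454 FPKM (log2 -2.01 ± 0.04). The rise was IL9R (log2 1.5 ± 0.05), which lies in the region that X and Y share, so that its reads can be divided between copies. Among 15 genes of the TNF receptor family 4 rose and 4 fell. The death receptor TNFRSF10B rose (log2 0.81 ± 0.05) while of its decoys TNFRSF10D fell, as above, and TNFRSF10C rose at about 1 FPKM (log2 0.9 ± 0.32). TNFRSF14 rose from 17.3 ± 1.33 to 38.2 ± 1.03 FPKM (log2 0.96 ± 0.05), TNFRSF1B, a receptor for TNF, fell from 1.55 ± 0.176 to 0.32 ± 0.0346 FPKM (log2 -2.32 ± 0.20) and TNFRSF4 (OX40) fell from 4.48 ± 0.0551 to 2.15 ± 0.291 FPKM (log2 -1.17 ± 0.16).

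Surface lectins and inhibitory receptors fell in 4 of 11 tested cases and rose in 2. LAIR1, a receptor for collagen that restrains immune cells, gave 79.5, 78.3 and 78.7 FPKM in HMC-1.2 and 6.34, 7.18 and 8.4 FPKM in clone 1, log2 -3.42 ± 0.05, and PILRA fell from 15.6 ± 0.49 to 1.85 ± 0.377 FPKM (log2 -3.66 ± 0.13). CD200R1 was called lower at under 0.5 FPKM (log2 -1.25 ± 0.39). SIGLEC8, which restrains mast cells and eosinophils, rose from 5.98 ± 0.0436 to 45.1 ± 1.96 FPKM (log2 2.75 ± 0.04), and SIGLEC14, a paralog of SIGLEC5 with which it can share reads, rose from 37.5 ± 1.69 to 64.0 ± 1.16 FPKM (log2 0.72 ± 0.04). The CD2 and SLAM family rose in 5 of 10 tested cases and fell in 2, with a median of 0.52. CD244 rose from 16.6 ± 0.966 to 36.7 ± 1.2 FPKM (log2 1.08 ± 0.06) and SLAMF7 rose from 1.09 ± 0.337 to 2.51 ± 0.16 FPKM (log2 1.31 ± 0.15). CD84, which mast cells use to bind each other, gave 7.58, 7.34 and 7.74 FPKM in HMC-1.2 and 0.58, 0.59 and 0.57 FPKM in clone 1, log2 -3.84 ± 0.08, and SLAMF1 was called lower at under 0.2 FPKM (log2 -1.37 ± 0.56).

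Of 27 adhesion molecules tested 3 rose and 7 fell. ITGAL, the alpha chain of LFA-1, which holds leukocytes to ICAM, gave 119, 127 and 129 FPKM in HMC-1.2 and 1.6, 1.51 and 1.46 FPKM in clone 1, log2 -6.27 ± 0.05. NCAM1, CD56, fell from 8.18 ± 1.02 to 0.243 ± 0.145 FPKM (log2 -6.02 ± 0.13). ALCAM had 28 to 42 counts per HMC-1.2 library and 0 over the 3 clone 1 libraries, at least 37.8-fold lower in clone 1. The rises were ITGB5 (log2 0.66 ± 0.04), ICAM4 (log2 0.94 ± 0.05) and, at under 1 FPKM, ITGB7 (log2 1.23 ± 0.27). Genes of a mesenchymal state fell in 6 of 14 tested cases, with a median of -0.39 that is the same with SNAI2 set at its bound. VIM, the intermediate filament vimentin (chromosome 10, 17228241 to 17237593), gave 248, 234 and 245 FPKM in HMC-1.2 and 27.0, 25.9 and 27.0 FPKM in clone 1, log2 -3.25 ± 0.04. SNAI2 had 17 to 30 counts per HMC-1.2 library and 0 over the 3 clone 1 libraries, at least 26.1-fold lower in clone 1. TWIST1 had 17 to 26 counts per HMC-1.2 library and 2 over the 3 clone 1 libraries, a ratio of 36.4 with a 95% counting interval of 9.68 to 307. SNAI2 and TWIST1 encode repressors of epithelial genes. ACTA2, smooth muscle actin, rose from 4.13 ± 0.487 to 14.8 ± 0.442 FPKM (log2 1.72 ± 0.08). VIM was at 59.8, 61.4 and 66.4 FPKM in clone 2, between the 2 groups compared, and the difference of clone 1 from it was log2 -1.25 ± 0.04.

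Of 16 genes of plasminogen activation and matrix breakdown 1 rose and 3 fell (25.0% called, against 20.0% of all genes). PLAU, the urokinase that turns plasminogen into plasmin, gave 15.5, 14.3 and 14.3 FPKM in HMC-1.2 and 0.3, 0.55 and 0.68 FPKM in clone 1, log2 -5.01 ± 0.16. Its receptor PLAUR fell by less (log2 -0.72 ± 0.06), and TIMP2, an inhibitor of matrix enzymes, was called lower at under 1 FPKM (log2 -1.32 ± 0.44). MMP2, a gelatinase, rose from 2.03 ± 0.35 to 8.58 ± 0.625 FPKM (log2 2.38 ± 0.07), and was above clone 2 by log2 2.03 ± 0.07. Among 22 tested receptors of the G protein-coupled list 2 rose and 5 fell. C3AR1, the receptor for complement C3a, rose from 95.9 ± 1.49 to 153 ± 1.25 FPKM (log2 0.61 ± 0.03), and P2RX1, an ATP-gated channel kept in this list, rose from 37.9 ± 0.218 to 63.4 ± 1.39 FPKM (log2 1.31 ± 0.04), more in counts than in FPKM. CXCR4, the homing receptor for CXCL12, fell from 3.01 ± 0.0351 to 0.337 ± 0.1 FPKM (log2 -3.22 ± 0.24), PTGER4 fell from 1.13 ± 0.0874 to 0.287 ± 0.0252 FPKM (log2 -1.93 ± 0.17), and PTGER3 had 13 to 16 counts per HMC-1.2 library and 4 over the 3 clone 1 libraries, a ratio of 12.4 with a 95% counting interval of 4.52 to 47.5. PTGER3 and PTGER4 are receptors for prostaglandin E2.

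Cells answer a shortage of amino acids through the factor ATF4, misfolded protein in the endoplasmic reticulum through chaperones such as BiP, misfolded protein in the cytosol through heat shock factors, and low sterol through SREBP factors. In the list of ATF4 and unfolded protein response genes 9 of 25 tested members rose and 6 fell. Targets of ATF4 were among the rises. TRIB3, a pseudokinase that ATF4 induces, gave 39.8, 40.9 and 38.0 FPKM in HMC-1.2 and 171, 173 and 168 FPKM in clone 1, log2 2.06 ± 0.05. DDIT3, the factor CHOP, rose from 15.6 ± 1.18 to 57.5 ± 2.93 FPKM (log2 1.81 ± 0.07). ASNS, asparagine synthetase, rose from 201 ± 5.6 to 403 ± 14.4 FPKM (log2 0.92 ± 0.04), and the secreted STC2 rose from 10.4 ± 0.101 to 23.4 ± 1.44 FPKM (log2 1.15 ± 0.04). ATF4 itself was not called (log2 0.16 ± 0.04), at 651, 659 and 616 FPKM in clone 1, and ATF5 fell from 77.7 ± 2.76 to 41.6 ± 1.37 FPKM (log2 -0.97 ± 0.04).

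Chaperones of the endoplasmic reticulum made up 5 of the 6 falls, with SDF2L1 (-0.79 on the log2 scale) among them. HSPA5, which encodes BiP, gave 264, 256 and 260.0 FPKM in HMC-1.2 and 111, 113 and 108 FPKM in clone 1, log2 -1.28 ± 0.03. CALR, calreticulin, fell from 648 ± 6.42 to 334 ± 11.1 FPKM (log2 -1.01 ± 0.04), PDIA4, a disulphide isomerase, fell from 111 ± 0.49 to 62.9 ± 0.964 FPKM (log2 -0.87 ± 0.03), and HSP90B1, GRP94, fell from 311 ± 3.99 to 187 ± 1.25 FPKM (log2 -0.77 ± 0.03). Heat shock genes, most of them for chaperones of the cytosol, fell in 11 of 17 tested cases and rose in none, with a median of -0.87. HSPA8, the constitutive HSP70 and among the most abundant transcripts here, gave 1948, 1880.1 and 1841 FPKM in HMC-1.2 and 845, 855 and 849.5 FPKM in clone 1, log2 -1.2 ± 0.03. HSPA1A fell from 95.7 ± 2.23 to 29.2 ± 0.0513 FPKM (log2 -1.78 ± 0.04) and HSPA1B fell from 33.9 ± 1.79 to 8.68 ± 0.486 FPKM (log2 -2.02 ± 0.06), genes for the same inducible HSP70 protein, between which reads can be divided. HSP90AA1 fell near the fold (log2 -0.62 ± 0.03), and HSPH1 (log2 -0.87 ± 0.03), DNAJA1 (log2 -0.93 ± 0.03) and, at under 1 FPKM, HSPA6 (log2 -1.42 ± 0.26) fell as well.

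Sterol and fatty acid synthesis genes fell in 13 of 28 tested cases and rose in none (median -0.53). FASN, fatty acid synthase, fell from 110.2 ± 7.43 to 46.2 ± 0.809 FPKM (log2 -1.38 ± 0.06), and FADS2, a desaturase, fell from 519 ± 6.59 to 217 ± 8.81 FPKM (log2 -1.32 ± 0.04). INSIG1, which holds SREBP back when sterol is present and is itself a target, gave 394, 385 and 401 FPKM in HMC-1.2 and 177, 162 and 171 FPKM in clone 1, log2 -1.26 ± 0.04. Of the cholesterol pathway, HMGCS1 fell from 90.9 ± 2.2 to 49.8 ± 0.902 FPKM (log2 -0.91 ± 0.03) and FDPS fell from 501 ± 9.73 to 313 ± 8.74 FPKM (log2 -0.74 ± 0.04). SREBF1 fell (log2 -0.82 ± 0.04), and SREBF2 was not called (log2 0.07 ± 0.03).

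The same lists were read in the direct comparison with clone 2, where the share called over all genes was 8.38% higher and 4.25% lower in clone 1. Of the 25 ATF4 and unfolded protein response genes 15 were higher and 5 lower in clone 1 than in clone 2, of 17 heat shock genes 0 and 9, and of 28 sterol and fatty acid genes 0 and 16. Against HMC-1.1, with 0.671% of all genes higher and 0.339% lower, the counts were 2 and 0, 0 and 4, and 0 and 5. The largest fold between the clones among them was in TRIB3 (log2 2.04 ± 0.05, adjusted p = 4.5e-15, edgeR's quasi-likelihood test), which also stood above HMC-1.1 (log2 0.99 ± 0.05, adjusted p = 3.71e-10, same test). HMGCS1 in clone 1 lay below clone 2 (log2 -1.56 ± 0.03) and below HMC-1.1 (log2 -0.96 ± 0.03). With HMC-1.2 as the base, the sterol list had medians of -0.53 for clone 1, 0.18 for clone 2 and -0.09 for HMC-1.1.

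**Figure D4:**
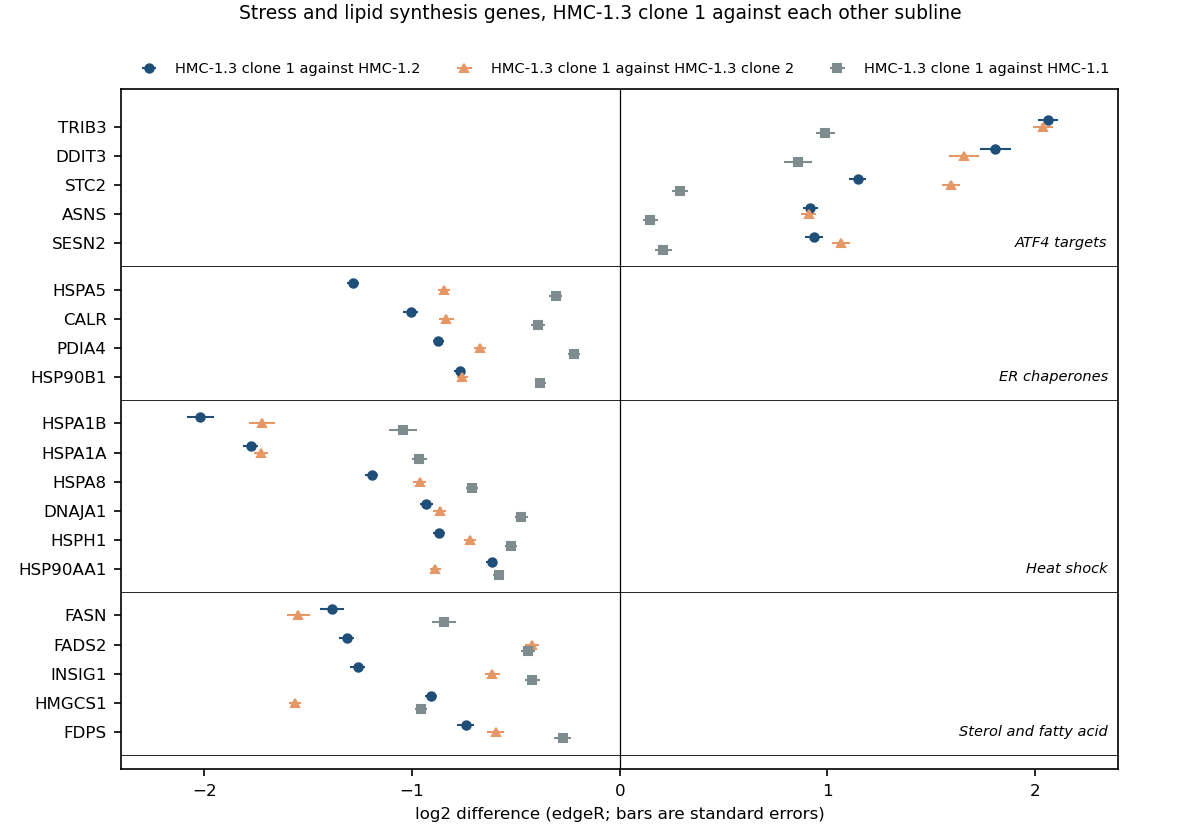
Log2 differences of HMC-1.3 clone 1 from HMC-1.2 (blue circles), clone 2 (orange triangles) and HMC-1.1 (grey squares), with standard errors as bars, for genes of amino acid stress, endoplasmic reticulum chaperones, heat shock and lipid synthesis. The 5 ATF4 targets lie to the right of 0 and the other genes to the left against all 3 sublines, and the distance is smallest against HMC-1.1 in all genes shown but FADS2 and HMGCS1.

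Promoters of these genes carry known elements, and 1 promoter is shown for each of 3 responses, taken as the most abundant called gene of its list that holds the letters searched. The letters were GAA, 2 bases of any kind, TTC, 2 of any kind and GAA for heat shock factors, CCAAT, 9 of any kind and CCACG for endoplasmic reticulum stress, and TGATGNAA for ATF4, searched on both strands of 300 bases around the RefSeq start (GRCh38.p14). These 3, and TCACNCCAC for sterol, were picked after the gene values were seen. The heat shock letters stand in 3 of 11 promoters of heat shock genes that fell and in 0.385% of 10652 promoters of tested genes. The endoplasmic reticulum letters stand in 3 of 6 promoters of genes of that list that fell, those of HSPA5, HSP90B1 and CALR. They also stand in 0 of 7 that rose, 1 of 9 not called and 0.169% of all. The ATF4 letters stand in 1 of 7 that rose, ASNS, in 2 of 9 not called and in 1.57% of all. The sterol letters are in none of 8 promoters of sterol genes that fell, in 1 of 14 not called and in 1.15% of all. Only 8 of the 13 sterol genes that fell had a promoter to search. Below are the 250 bases before the start, 5′ to 3′ on the strand of the gene, with the matches in capitals, at chr11:123062137-123062386 for HSPA8 (minus strand), chr19:12938359-12938608 for CALR (plus strand) and chr7:97872409-97872658 for ASNS (minus strand).
HSPA8 promoter: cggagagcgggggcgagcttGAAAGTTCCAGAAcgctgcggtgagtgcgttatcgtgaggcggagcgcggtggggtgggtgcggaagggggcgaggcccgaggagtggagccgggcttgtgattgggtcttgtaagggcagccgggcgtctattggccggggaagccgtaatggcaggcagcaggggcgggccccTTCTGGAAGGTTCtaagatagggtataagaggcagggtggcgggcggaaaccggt
CALR promoter: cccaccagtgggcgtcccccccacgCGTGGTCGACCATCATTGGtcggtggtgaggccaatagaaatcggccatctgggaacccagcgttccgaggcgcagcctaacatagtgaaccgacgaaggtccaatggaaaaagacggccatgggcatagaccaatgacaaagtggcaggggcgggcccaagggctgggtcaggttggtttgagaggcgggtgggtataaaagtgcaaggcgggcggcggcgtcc
ASNS promoter: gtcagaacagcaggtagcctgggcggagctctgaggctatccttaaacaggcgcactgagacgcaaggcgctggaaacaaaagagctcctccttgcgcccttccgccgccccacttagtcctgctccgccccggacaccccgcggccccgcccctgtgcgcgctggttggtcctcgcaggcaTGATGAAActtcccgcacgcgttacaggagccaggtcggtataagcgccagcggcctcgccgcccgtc

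Over all called genes, the shares of promoters with an element were as follows. The AP-1 letters TGANTCA stood in 5.96% of the promoters of genes that rose, 6.54% of those that fell and 4.31% of all. For the STAT letters TTCNNNGAA the shares were 5.87%, 5.69% and 6.32%, and for the GATA letters AGATAA 8.03%, 7.14% and 5.12%. The E-box CACGTG, which MYC binds, stood in 10.4%, 6.66% and 10.3%, and the E-box CATGTG, which MITF binds, in 8.29%, 9.81% and 6.82%. These are descriptions, with no test, of 1158 promoters of genes that rose and 826 of genes that fell.

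Of 9 anti-apoptotic genes tested MCL1 (log2 -0.88 ± 0.03) and BIRC3 fell and none rose (22.2% called, against 20.0% of all genes). Of 9 pro-apoptotic genes of the BCL2 family 2 rose and 1 fell (33.3% called). BBC3, which encodes PUMA, gave 20.4, 19.9 and 18.3 FPKM in HMC-1.2 and 52.2, 56.3 and 53.9 FPKM in clone 1, log2 1.48 ± 0.05, BMF rose from 1.19 ± 0.286 to 2.68 ± 0.274 FPKM (log2 1.36 ± 0.11), and BAK1 fell from 30.7 ± 1.12 to 19.3 ± 1.13 FPKM (log2 -0.73 ± 0.06). With HMC-1.2 as the base, the list of p53 targets had medians of 0.40 for clone 1, 0.34 for clone 2 and 0.41 for HMC-1.1. In clone 1, 10 of 26 tested targets rose and 1 fell. Among them were GADD45A, a stress protein that slows the cell cycle (log2 0.98 ± 0.09), and SESN2 (log2 0.94 ± 0.04), which ATF4 also induces, and the fall was PLK3 (log2 -0.78 ± 0.07). Of 22 genes of the G1 phase 4 rose and 3 fell. CDK4, the kinase partner of D cyclins, gave 274, 269.8 and 256 FPKM in HMC-1.2 and 548, 549 and 516 FPKM in clone 1, log2 0.96 ± 0.04. The gene lies next to a stretch of chromosome 12, given below, where most genes were higher. CDK6 rose at 0.77 to 2.32 FPKM (log2 1.23 ± 0.10), CDKN1B, the inhibitor p27, rose from 23.3 ± 0.403 to 46.7 ± 0.757 FPKM (log2 0.95 ± 0.03), and CCNE2 fell from 9.24 ± 0.352 to 5.44 ± 0.352 FPKM (log2 -0.89 ± 0.07). CCND3 was called near the fold (log2 -0.6 ± 0.04). Among 30 genes of DNA replication and mitosis none rose and 2 fell, RRM2, a subunit of ribonucleotide reductase (log2 -1.05 ± 0.04), and CDC6 (log2 -0.63 ± 0.04). The list as a whole had a median of -0.22, and by adjusted p alone 24 of the 30 were lower and 1 higher. By the same rule 4667 of all 15944 genes were lower and 4796 higher.

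Interferon-stimulated genes went both ways, with 3 of 30 higher and 9 lower and a median of 0.09. IFIT2, a sensor of viral RNA, rose from 3.42 ± 0.146 to 9.97 ± 0.07 FPKM (log2 1.47 ± 0.06), USP18, which damps interferon signals, rose from 24.6 ± 0.481 to 50.8 ± 3.0 FPKM (log2 0.99 ± 0.04), and IFIT1 was called near the fold (log2 0.6 ± 0.07). IFI27 fell from 15.8 ± 0.555 to 5.62 ± 1.37 FPKM (log2 -1.25 ± 0.15), and GBP2 (log2 -2.45 ± 0.31) and MX2 (log2 -1.12 ± 0.28) fell at under 1 FPKM. None of 16 tested genes of MHC class I presentation was called (median -0.11). By adjusted p alone 1 was higher and 8 lower, where 59.4% of all genes differed. Of 8 class II genes HLA-DPB1 rose from 5.13 ± 0.609 to 25.4 ± 1.4 FPKM (log2 2.18 ± 0.07), HLA-DMA rose from 4.84 ± 0.32 to 8.12 ± 0.702 FPKM (log2 0.69 ± 0.10) and HLA-DRA, the usual marker of the class, was called lower at under 0.5 FPKM, with 8 to 10 counts per HMC-1.2 library and 0, 7 and 1 in those of clone 1. Of 13 checkpoint and costimulatory ligands 5 rose and 1 fell. LGALS9, galectin-9, gave 79.1, 77.5 and 85.0 FPKM in HMC-1.2 and 227, 225 and 214 FPKM in clone 1, log2 1.39 ± 0.04. CD274, PD-L1, and CD80 rose at a low level, to 0.29, 0.23 and 0.46 FPKM and 1.21, 1.26 and 2.02 FPKM, and ICOSLG fell from 9.93 ± 0.3 to 4.52 ± 0.335 FPKM (log2 -1.2 ± 0.07).

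Several factors that mast cells depend on were higher in clone 1 by less than 1.5-fold and were not called. They were GATA2 (log2 0.1 ± 0.03), GATA1 (log2 0.18 ± 0.03), MITF (log2 0.3 ± 0.03), SPI1 (log2 0.11 ± 0.04) and MYC (log2 0.24 ± 0.03). Of 35 blood and mast cell factors 4 rose and 6 fell, while by adjusted p alone 20 were higher and 8 lower (median 0.15). By that rule 59.4% of all genes differed. CEBPA, a factor of the granulocyte line, gave 29.4, 29.7 and 27.8 FPKM in HMC-1.2 and 5.5, 6.23 and 6.04 FPKM in clone 1, log2 -2.35 ± 0.05, and CEBPE, of late granulocytes and eosinophils, fell at about 1 FPKM (log2 -1.52 ± 0.44). MYB, a factor of blood progenitors, fell from 120.2 ± 3.84 to 64.1 ± 2.61 FPKM (log2 -0.98 ± 0.03), and IKZF2 (Helios) fell from 2.34 ± 0.4 to 0.897 ± 0.184 FPKM (log2 -1.3 ± 0.09). BHLHE41 had 49 to 53 counts per clone 1 library and 1 over the 3 HMC-1.2 libraries, a ratio of 138 with a 95% counting interval of 24.4 to 5480, and it encodes a repressor of the circadian clock. KLF2 rose from 3.18 ± 0.0964 to 7.36 ± 0.785 FPKM (log2 1.18 ± 0.11) and KLF1 rose, as above. Of 18 clock genes 5 rose and 1 fell. NR1D2 rose from 1.66 ± 0.0751 to 3.41 ± 0.244 FPKM (log2 1.01 ± 0.08), DBP rose from 20.1 ± 0.246 to 39.5 ± 2.22 FPKM (log2 0.93 ± 0.06), and RORA had 23 to 25 counts per HMC-1.2 library and 2 over the 3 clone 1 libraries, a ratio of 40.2 with a 95% counting interval of 10.7 to 338.

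Of 24 Notch and WNT genes 4 rose and 5 fell (37.5% called). Over all genes 20.0% were called, and the iron (21.4%), lysosomal (16.0%) and glycolysis and hypoxia (10.7%) lists below were near or under that share. WNT11 rose from 0.717 ± 0.255 to 2.81 ± 0.186 FPKM (log2 2.23 ± 0.16) and LGR4, a receptor for R-spondins, rose from 0.357 ± 0.0503 to 1.97 ± 0.0814 FPKM (log2 2.46 ± 0.10), beside ROR2. WNT5A (log2 -2.4 ± 0.32) and AXIN2, a target that feeds back on WNT signals (log2 -2.65 ± 0.45), fell at under 1 FPKM. JAG1, a Notch ligand, fell from 10.7 ± 0.591 to 4.62 ± 0.551 FPKM (log2 -1.26 ± 0.06), and NOTCH1 fell by log2 1.07 ± 0.06. Of 14 iron genes 1 rose and 2 fell, TFRC, the transferrin receptor, from 74.9 ± 1.75 to 41.8 ± 1.5 FPKM (log2 -0.9 ± 0.03) and SLC40A1, the iron exporter ferroportin, from 1.39, 1.75 and 1.73 FPKM to 0.11, 0.02 and 0.05 FPKM. FECH, which puts iron into haem, rose from 68.9 ± 2.87 to 123 ± 1.52 FPKM (log2 0.83 ± 0.03). Of 25 lysosomal genes HEXA was called higher near the fold (log2 0.6 ± 0.04), and 3 fell, among them the cathepsins CTSH (log2 -1.45 ± 0.07) and CTSL (log2 -0.74 ± 0.04). Glycolysis and hypoxia genes fell in 3 of 28 cases. SLC16A3, the lactate exporter, fell from 182 ± 2.42 to 92.1 ± 0.931 FPKM (log2 -1.06 ± 0.03), and PFKFB4 (log2 -0.73 ± 0.07) and LDHA (log2 -0.59 ± 0.03) fell by less. In 13 mitochondrially encoded genes and 17 epigenetic genes mutated in mastocytosis none was called, with medians of -0.06 and -0.04. By adjusted p alone 3 and 4 of them were higher and 2 and 7 lower, where 59.4% of all genes differed.

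Among the most abundant called transcripts, the mitochondrial ribosomal RNAs MT-RNR2 (log2 0.92 ± 0.07) and MT-RNR1 (log2 0.93 ± 0.06) were higher, in libraries made from poly(A) RNA. GSTP1, a glutathione transferase, gave 296, 306 and 281 FPKM in HMC-1.2 and 686, 709 and 652 FPKM in clone 1, log2 1.14 ± 0.05, and CAP1, an actin regulator, rose from 753 ± 12.5 to 1272 ± 37.2 FPKM (log2 0.71 ± 0.03). CD164, a sialomucin (log2 1.05 ± 0.03), WARS, tryptophanyl-tRNA synthetase (log2 0.64 ± 0.03), and the RNA GAS5 (log2 0.79 ± 0.04) rose as well. Of the abundant falls not yet given, RACK1, a ribosomal scaffold protein, gave 2038, 2025 and 1928 FPKM in HMC-1.2 and 1085, 1054 and 1027 FPKM in clone 1, log2 -1.0 ± 0.03, LGALS1, galectin-1, fell from 1163 ± 32.4 to 695 ± 23.4 FPKM (log2 -0.81 ± 0.06), and TPM3, a tropomyosin, fell from 560.1 ± 11.5 to 364 ± 5.63 FPKM (log2 -0.67 ± 0.03).

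A small set of genes separated clone 1 from all other sublines. A gene counted when it was called in the same direction against HMC-1.2, HMC-1.1 and clone 2 and its 3 libraries lay outside the range of the other 9 in CPM. This held for 74 genes (0.464%), 49 higher (0.307%) and 25 lower (0.157%), and 12 of them belonged to a list. With a test against 1.5-fold itself (edgeR's glmTreat) in each of the 3 comparisons, the number was 7. The list members included TRIB3 and DDIT3, higher, and FOS, FOSB, IL32, HSPA1A, HSPA1B, HSPA8, HSPE1, HMGCS1 and FASN, lower. TXNIP, an inhibitor of thioredoxin that also limits glucose uptake, was in no list and gave 57.5, 60.7 and 57.3 FPKM in HMC-1.2 and 122, 118 and 120.1 FPKM in clone 1, with 37.7, 37.4 and 39.2 FPKM in clone 2 and 68.4, 64.7 and 63.6 FPKM in HMC-1.1. By the smallest of the 3 differences, the coding genes among the 6 named on the higher side were HIST1H2BO, NUPR1, a stress-induced nuclear protein, and H2BFS. NUPR1 had 29 to 30 counts per clone 1 library and 3 over the 3 HMC-1.2 libraries, a ratio of 26.9 with a 95% counting interval of 8.92 to 133, and clone 1 was above HMC-1.1 by log2 1.38 ± 0.41. HIST1H2BO rose from 0.937 ± 0.286 to 3.75 ± 0.727 FPKM (log2 1.88 ± 0.44) and H2BFS rose from 2.89 ± 0.178 to 8.7 ± 3.74 FPKM (log2 1.52 ± 0.29), both copies of histone H2B whose reads can be shared with other copies. Of 34 tested genes with a symbol that begins with HIST, 17 rose and 1 fell (median 0.88), against 11.8% and 8.18% of all genes. This set was in no list and was formed after the values were seen. Among the 49 were 10 histone genes, which are not independent, as HIST2H3A and HIST2H3C gave identical values. Most histone transcripts end without a poly(A) tail, so that these libraries hold only part of them. RP5-1182A14.7 had 0, 8 and 0 counts in the HMC-1.2 libraries and 23 to 38 in those of clone 1, and RP4-794H19.1 (log2 1.78 ± 0.40) and CTD-2189E23.1 (log2 1.19 ± 0.35) rose at under 3 FPKM. On the lower side GFPT2 had 17 to 22 counts per HMC-1.2 library and 3 over the 3 clone 1 libraries, a ratio of 20.6 with a 95% counting interval of 6.69 to 103. GFPT2 feeds glucose into hexosamines. RP11-134F2.8 had 10 to 46 counts per HMC-1.2 library and 9, 0 and 0 in those of clone 1. With IL32, PRRG3 (log2 -1.59 ± 0.36), RP11-861A13.5 (log2 -1.73 ± 0.61) and XXbac-BPG246D15.9 (log2 -1.26 ± 0.24) completed the 6 on the lower side.

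Shifts shared by neighbouring genes were sought with a median taken along each chromosome in windows of 21 genes, leaving out genes under 5 CPM on average. A run is a stretch in which it stayed at 0.3 or more from 0 on the log2 scale, and 4 runs held at least 20 genes. The largest shift among them was near the end of chromosome 5, from NOP16 to RNF130 (176383946 to 180072113, hg38), where 39 of 43 genes were lower and 34 called lower, with a median of -1.06. RACK1, also lower, lies beyond RNF130, where too few genes are left for a full window, and is not in the run. B4GALT7, above, is among the 43. The 12 tested genes of this stretch under 5 CPM, which the search did not use, had a median of -0.37. With HMC-1.2 as the base, the 43 genes had medians of -1.02 for clone 2 and -1.01 for HMC-1.1, and clone 1 differed from these sublines by medians of 0.01 and -0.01. On chromosome 12, 48 genes from METTL21B to PAWR (57771492 to 79690964) had a median of 0.45, and 15 were called higher and 2 lower. CDK4 lies just before them, beside MARCH9, and both were called higher. With genes at 10 CPM or more, a stretch from DCTN2 to CCDC59 took CDK4 in. On chromosome 19, 26 genes from AC092296.1 to FAM98C (36259540 to 38409088) had a median of 0.53 and 33 genes from SIGLEC12 to ZNF765 (51491227 to 53430413) one of 0.40, with 12 and 12 called higher and 1 called lower in each. These 3 runs were also high in HMC-1.1 (medians 0.55, 0.52 and 0.36) and in clone 2 (0.54, 0.33 and 0.26), each against HMC-1.2. With genes at 10 CPM or more both chromosome 19 runs were lost and a run of 27 genes on chromosome 20, from SNRPB to PCNA, was found (median 0.35). Copy number was not measured here. On the X chromosome, where XIST was near 0 in clone 1, 99 of 564 tested genes were higher and 42 lower (25.0% called), and the median over 386 genes at 5 CPM was 0.08, without a run of 20 genes.

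**Figure D5:**
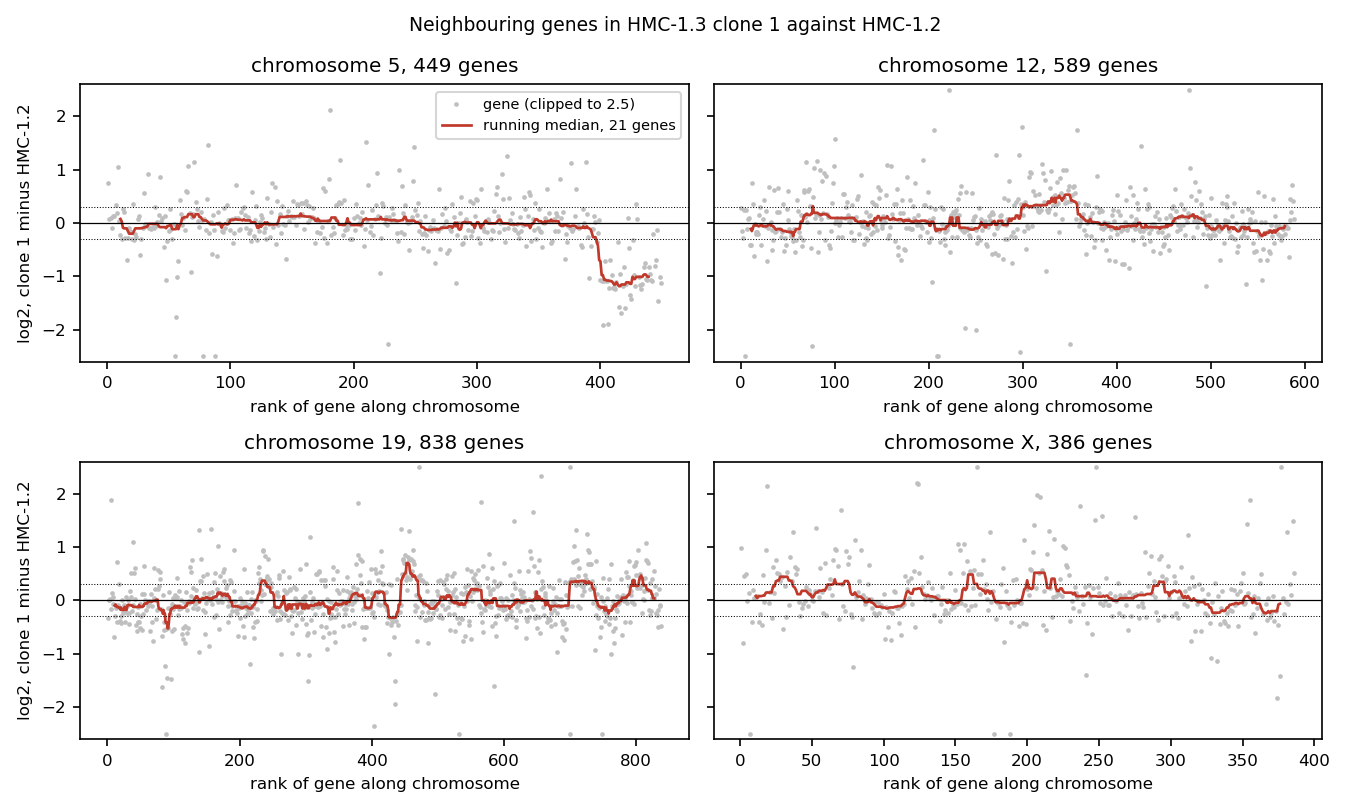
Log2 difference of HMC-1.3 clone 1 from HMC-1.2 for each gene averaging 5 CPM or more (grey points, clipped at 2.5) and its median in windows of 21 genes (red line), against the rank of the gene along chromosomes 5, 12, 19 and X. Dotted lines mark 0.3 in either direction. The line drops below -0.3 over the last genes of chromosome 5 and rises above 0.3 in the middle of chromosome 12 and at several places of chromosome 19.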

How the data were processed

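Poly(A) RNA of 4 sublines, 3 libraries each, was sequenced with a stranded kit. The authors trimmed reads (cutadapt 2.10), aligned them to hg38 with STAR 2.5.3 and estimated expected counts and FPKM per gene with RSEM 1.3.0 and Gencode 39, and deposited both. The deposited expected counts (7.39% not whole) were rounded, and all tests here used them. FPKM, as deposited by the authors, serves to show levels. Of 58381 genes, 15944 passed filterByExpr of edgeR 4.0.16 (R 4.3.3). The 12 libraries were fitted together with TMM factors (0.974 to 1.02) and no covariate, and tested by the quasi-likelihood test with Benjamini-Hochberg adjustment over all genes. The biological coefficient of variation was 0.0442. A gene was called at an adjusted p under 0.05 and over 1.5-fold. Not overlapping refers to CPM. The procedure was run on simulated counts in which few genes changed and all genes had the same coefficient of variation. In these data 59.4% of genes differed by adjusted p, so the simulation does not measure wrong calls here. Groups came from the sample titles. Replicate numbers did not pair the samples (correlations of same-numbered deviations 0.0144 to 0.0687). At these depths a gene with a few counts per library is imprecise, and counting intervals cover counting error only.

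Genes were named by rule: KIT, the 12 largest rises and falls, the 8 most abundant called genes in each direction, up to 3 called members of each list in each direction, 6 in each direction of those apart from all other sublines, and defining members or markers. A further 39 genes, such as CCL3, TXNIP, PRG2 and MYB, and SDF2L1 were picked after their values were seen. So was the set of genes with symbols that begin with HIST. The members, lists and tests were chosen with earlier results of these data known, so none is independent evidence. Some members of the lists are counted but not reported by name here. Positions came from Gencode 44, which held 98.9% of the identifiers, and promoters from RefSeq. Alternatives were DESeq2 1.42.0, limma 3.58.1 on log2 FPKM, library totals without TMM, other filters, other samples, a replicate block, resent libraries, glmTreat and leaving out each library.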

Additional observations from a re-analysis of the deposited data

Results flagged for a closer look

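Both clones carry the same repair, and 24 of 246 genes described or named differed between clone 1 and clone 2 by over 4-fold, among 113 past 1.5-fold in the same direct contrast (edgeR's quasi-likelihood test, adjusted p under 0.05). Over all genes tested, 12.6% were called in that contrast. The 246 were named mostly for large changes, some of them for a difference from clone 2. Their share therefore does not measure how far the clones differ. KIF17 was lower in clone 1 (log2 -6.27 ± 0.11), at a mean of 0.32 FPKM against 25.9. NCAM1 (log2 -2.44) and GRAP2 (-2.65) were lower in clone 1 as well, at 0.243 and 8.12 FPKM against 0.843 and 49.6. FCER1G was higher in clone 1 (log2 3.21 ± 0.08), at 94.4 FPKM against 10.3, and so were KLK1 (log2 3.61), LINC00624 (2.88), MMP2 (2.03), TRIB3 (2.04) and NR5A1 (2.29).

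At low counts, FCER1A (log2 -2.95), GBP2 (-2.53), BHLHE41 (-2.0), HLA-DRA (-3.67), CD24 (-2.87), GFPT2 (-2.17), PRRG3 (-2.15) and RP11-134F2.8 (-3.44) were lower in clone 1 than in clone 2, and NUPR1 (3.68), RP4-794H19.1 (3.3) and RP5-1182A14.7 (8.0) higher. BHLHE41, at means of 0.647 FPKM in clone 1 and 1.70 FPKM in clone 2, was measured in both clones. The other fitted values, of genes near 0, depend on the prior count and are no bounds. In 4 genes a single clone 2 library stood out. ALCAM (-7.99) was at 0, 0.03 and 0.56 FPKM in clone 2, SFRP1 (-4.89) at 0.02, 0.01 and 0.42 FPKM and SNAI2 (-5.79) at 0.11, 0.03 and 0.37 FPKM, with replicate 3 highest each time. TNF was higher in clone 1 (2.78), at 0.66, 0.99 and 0.88 FPKM against 0.34, 0.02 and 0.03 FPKM in clone 2, where replicate 1, a resent library, was highest.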

How the results depend on the processing

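Of 3193 called genes (1888 higher, 1305 lower), 74 apart from all other sublines and 255 list members, the counts stayed within 1.5 times under DESeq2, library totals alone, both other filters, the 6 libraries alone, a term for the resent libraries, their removal, limma on log2(FPKM + 0.1) and a replicate block (3185 called, 72 apart, 253 list members). The block was fitted although the numbers did not pair the samples, and each clone 1 library correlated best with its own number, a hint from the data alone. A test against 1.5-fold itself (glmTreat) gave 1932 (1076 higher, 856 lower) and 7 apart. limma on log2(FPKM + 1), which shrinks the differences of low genes, gave 1902 (1237 higher, 665 lower) and 33 apart. Adjusted p without a fold threshold gave 9463 (4796 higher, 4667 lower), 1809 apart and 560 list members. Leaving out each library in turn gave 3137 to 3186 called, 1812 to 1847 higher, 1302 to 1368 lower, 55 to 78 apart and 246 to 259 list members. Chromosomal runs of 20 genes numbered 4, and 3 with genes at 10 CPM or more (both chromosome 19 runs lost, 1 gained on chromosome 20), 5 with windows of 31 genes and 7 with library totals alone, which moved the median of all genes to 0.07. TPSD1, not called in the fit reported, reversed to -0.058 without all resent libraries. SLAMF1, SPRED3, COL1A1, BIRC3, LDHA, CCND3, CD200R1 and STAT5A crossed the thresholds most often over these settings. The cause of these shifts was not tested. Wells plated in parallel and a single clone limit what the p-values cover.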
